A study of Arabidopsis thaliana and Hordeum vulgare and Setaria italica with 13 samples.

Results

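Lysine tRNAs carry lysine to the ribosome and read its codons AAG and AAA. Plants hold them as a pair of families named here by the anticodon in DNA letters. LysCTT, with C in the wobble position, is a nuclear tRNA that pairs with AAG, while LysTTT, with a modified T (U in RNA) in that position, reads AAA and can also read AAG. In A. thaliana both organelle genomes encode a LysTTT of their own, and the plastid gene, trnK, carries an intron that must be spliced out. Members were chosen by anticodon alone, as the rows LysCTT and LysTTT among the 52 anticodons measured by tRNA-seq and as the 23 of 532 sequence entries with these anticodons in the YAMAT-seq files. The 23 entries are 17 distinct sequences (isodecoders), 9 of LysCTT and 8 of LysTTT, with 7 entries in Arabidopsis thaliana, 3 in barley (Hordeum vulgare), 2 in foxtail millet (Setaria italica), 8 in wheat (Triticum aestivum) and 3 in maize (Zea mays).

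The study profiled untreated seedlings, grown in soil for 10 days at 23 ºC in long days (16 h light, 8 h dark), and the labels name no genotype. tRNA-seq, a small RNA library of pretreated RNA, covered leaf and root of A. thaliana and seedlings of soybean (Glycine max), H. vulgare, sorghum (Sorghum bicolor), S. italica, T. aestivum and Z. mays. YAMAT-seq, in which a Y-shaped adapter joined to the CCA end selects full-length mature tRNAs, covered seedlings of Z. mays, T. aestivum, S. italica, H. vulgare and A. thaliana, at 6851530 to 19833183 reads per library. Each of the 13 libraries is a group of its own, so no value has a replicate spread. The intervals below (exact Clopper-Pearson, 95%) cover counting error only and take reads as independent. Among entries under 100 reads, 215 of 272 in the grasses and 64 of 82 in A. thaliana had even counts, so the intervals may be too narrow. The leaf and root columns of A. thaliana were identical in every family (0 differed), and their values count once, with the tissue behind them not known.

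The 4 sequences on which the A. thaliana results turn, each the most read of its gene type, are printed 5′ to 3′ with the CCA end, as deposited, and with the anticodon in capitals.
at_tR124_LysCTT: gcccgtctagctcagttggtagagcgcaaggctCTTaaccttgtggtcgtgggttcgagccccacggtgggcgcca
at_tR127_LysTTT: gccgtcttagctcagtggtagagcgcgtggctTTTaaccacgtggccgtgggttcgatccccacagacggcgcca
at_tR132_LysTTT: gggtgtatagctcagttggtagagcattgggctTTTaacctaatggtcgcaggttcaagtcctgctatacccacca
at_tR131_LysTTT: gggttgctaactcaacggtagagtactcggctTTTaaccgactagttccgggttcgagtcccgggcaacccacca
Without the CCA end, at_tR124_LysCTT matched nuclear genes on all 5 chromosomes of TAIR10.1, at_tR127_LysTTT matched nuclear genes on chromosomes 1, 2, 3 and 5, at_tR132_LysTTT matched the mitochondrial trnK and at_tR131_LysTTT the plastid trnK with its exons joined. The nuclear LysCTT and LysTTT sequences were 82.2% identical (13 edits). The mitochondrial sequence was 68.5% identical to nuclear LysCTT and 65.8% to nuclear LysTTT, and the plastid sequence 58.9% and 62.5%. Among the LysTTT sequences the anticodon is thus shared by tRNAs that differ at 22 to 27 positions by edit distance.

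In tRNA-seq, LysCTT was the main lysine tRNA of every species, and its level varied 17.8-fold. It made up 3.88% of tRNA abundance in S. bicolor, 3.23% in T. aestivum, 2.83% in H. vulgare, 2.62% in S. italica, 1.38% in A. thaliana, 1.30% in G. max and 0.218% in Z. mays. The grasses S. bicolor, T. aestivum, H. vulgare and S. italica stood highest and within 1.48-fold of each other, the eudicots A. thaliana and G. max stood below them and 1.06-fold apart, and Z. mays stood lowest, 12.0-fold below the next grass. Without replicates, no neighbours in this order can be said to differ beyond a spread. Among the 52 families LysCTT ranked 7 in S. bicolor, 8 in S. italica, 9 in T. aestivum, 12 in H. vulgare, 14 in G. max, 17 in A. thaliana and 27 in Z. mays.

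LysTTT was a minor family throughout. It stood at 0.277% in A. thaliana, 0.0390% in G. max, 0.0289% in T. aestivum, 0.0251% in Z. mays and 0.00710% in H. vulgare, and it was listed at 0 in S. bicolor and S. italica. A. thaliana was 7.10-fold above G. max, and all 5 grasses were below both eudicots. These percentages come in steps. In each species, all values above 0 (317 of 317) were whole multiples, within 0.01, of a smallest unit between 0.00495% in A. thaliana and 0.0253% in S. bicolor. LysTTT was 1 such step in H. vulgare, 3 in Z. mays, 4 in G. max, 4 in T. aestivum and 56 in A. thaliana, whereas LysCTT was 26 steps in Z. mays and 133 to 447 in the other species. The sources used here do not say what a step stands for and the depth is unknown, so no interval was computed. The LysTTT values outside A. thaliana rest on at most 4 of the smallest increments their columns hold.

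**Figure D1:**
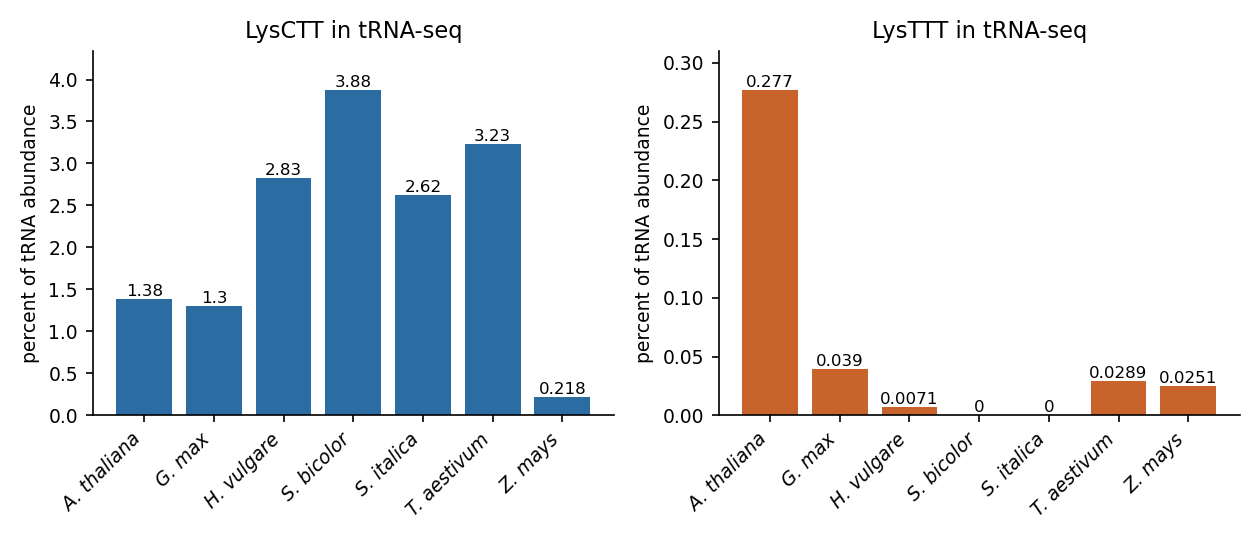
LysCTT (left) and LysTTT (right) in tRNA-seq as percent of tRNA abundance, 1 bar per species and library, on separate linear axes from 0. LysCTT is lowest in Z. mays at 0.218%, and LysTTT is highest in A. thaliana at 0.277% and listed at 0 in S. bicolor and S. italica.

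The ratio of LysCTT to LysTTT in tRNA-seq was 4.98 in A. thaliana, 8.67 in Z. mays, 33.2 in G. max, 112 in T. aestivum and 399 in H. vulgare. S. bicolor and S. italica have no ratio because LysTTT was listed at 0. LysCTT was therefore 83.3% of lysine tRNA in A. thaliana, 89.7% in Z. mays, 97.1% in G. max, 99.1% in T. aestivum and 99.8% in H. vulgare. The ratio ran over nearly the whole of its range within the grasses, from Z. mays to H. vulgare, with a single step of LysTTT behind the highest value.

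Grasses and eudicots were compared over the 7 species. LysCTT averaged 2.56% ± 1.39 (SD, n = 5 species) across the grasses, with 1.34% as the mean of the 2 eudicots, and the groups overlapped through Z. mays. The difference in mean log2(percent + 0.01) was 0.45 (two-sided exact permutation test over 21 splits of the species, p = 0.762, adjusted p = 0.943 over the 52 families). LysTTT averaged 0.0122% ± 0.0139 (SD, n = 5) in grasses against 0.158% in eudicots, with groups that did not overlap, as did those of 8 of 52 families in either direction (15.4%) and of 5 in this direction (9.62%). The nearest values of the groups, G. max and T. aestivum, were both 4 steps, of 0.00976% and 0.00723%. They thus differ only by the step of their columns. In S. bicolor, listed at 0, a single step was 0.0253%. The log2 difference of LysTTT was -2.66, with p = 0.0476 in the exact permutation test, the smallest it can give here, and an adjusted p of 0.413, so it did not pass. The size of this difference depends on the pseudocount, at -4.20 with 0.001 and -0.19 with 1. The log2 ratio of LysCTT to LysTTT was 3.11 higher in grasses (exact permutation p = 0.190), a size that the pseudocount sets for the species at 0. By the exact permutation test 0 of 52 families passed the adjusted threshold of 0.05, and 6 had an unadjusted p below 0.05.

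YAMAT-seq gave few lysine reads. In A. thaliana, LysCTT had 68 reads of 13439654, or 0.000506% (95% interval 0.000393 to 0.000641), and LysTTT had 4905, or 0.0365% (0.0355 to 0.0375). In H. vulgare, LysCTT had 8 reads, or 6.13e-05% (2.64e-05 to 0.000121), and LysTTT 4, or 3.06e-05% (8.35e-06 to 7.84e-05). In S. italica, LysCTT had 10 reads, or 0.000146% (7.00e-05 to 0.000268), and LysTTT had no entry, so 0 of 6851530 reads, with an interval of up to 5.38e-05%. In T. aestivum, LysCTT had 44 reads, or 0.000418% (0.000304 to 0.000562), and LysTTT 14, or 0.000133% (7.28e-05 to 0.000223). In Z. mays, LysCTT had 6 reads, or 3.03e-05% (1.11e-05 to 6.58e-05), and LysTTT 8, or 4.03e-05% (1.74e-05 to 7.95e-05). The LysTTT interval of A. thaliana lies above those of all 4 grasses, and the LysCTT intervals of A. thaliana and T. aestivum overlap. All 4 grasses together had 94 lysine reads. The sources used here do not say whether the reference tRNAs of a grass held every lysine tRNA, and the part of this in the low counts was not tested.

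The LysTTT reads of A. thaliana were almost all of organelle sequences. The mitochondrial at_tR132_LysTTT held 2623 reads, or 52.7% (51.3 to 54.1) of the lysine reads, and the plastid at_tR131_LysTTT held 2209, or 44.4% (43.0 to 45.8). Together they were 97.2%. The mitochondrial sequence matched DA397_mgt01 (mitochondrial genome, 19928 to 20000, plus strand) and DA397_mgt22 (346454 to 346526, plus strand), neither of which overlaps another annotated gene. The plastid sequence matched the joined exons of ArthCt089 (minus strand), 4311 to 4347 and 1717 to 1751, which are 37 and 35 bases long. Its intron of 2559 bases holds matK, a maturase gene (2056 to 3570, minus strand), and the deposited sequence runs across the exon junction without the intron. It comes with a read count and no alignment, so the splicing of single reads was not examined.

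The nuclear sequences of A. thaliana held 141 of its 4973 lysine reads, or 2.84% (2.39 to 3.34). LysCTT was read as at_tR124_LysCTT with 60 reads and at_tR126_LysCTT with 8, and nuclear LysTTT as at_tR127_LysTTT with 57 reads, at_tR130_LysTTT with 10 and at_tR128_LysTTT with 6. Both nuclear families were read almost equally, at 68 and 73 reads. Over nuclear sequences alone the ratio of LysCTT to LysTTT was 0.932 (0.659 to 1.31), against 0.0139 (0.0107 to 0.0176) over all lysine reads.

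**Figure D2:**
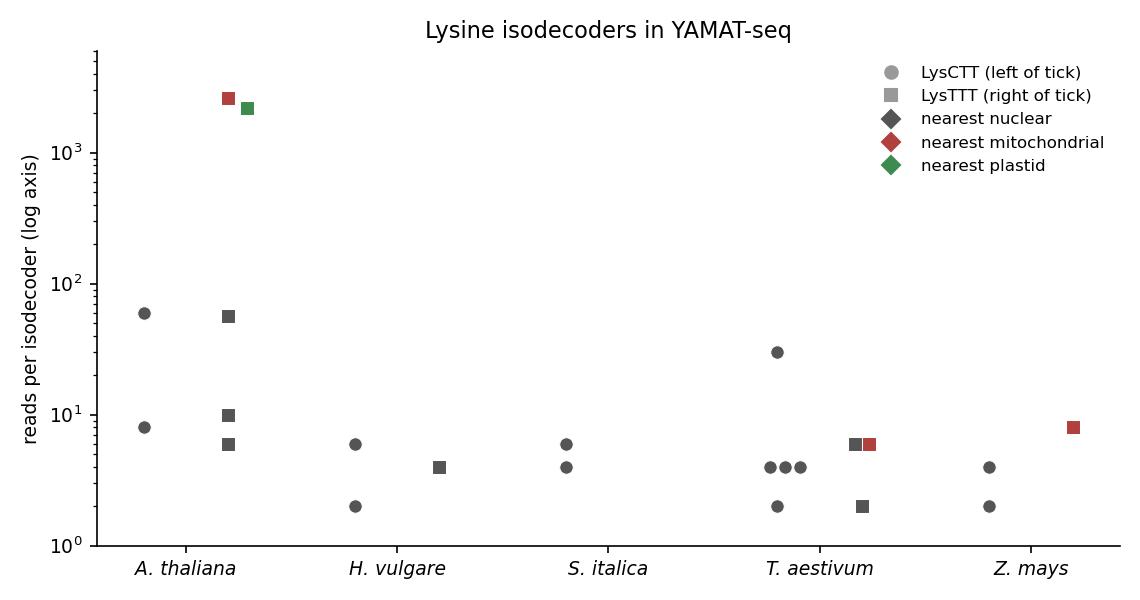
Reads of each lysine isodecoder in YAMAT-seq on a log axis, 1 point per sequence, with LysCTT as circles and LysTTT as squares and the colour giving the nearest A. thaliana gene type by edit distance. The 2 organelle sequences of A. thaliana stand at 2209 and 2623 reads, and no grass sequence exceeds 30.

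Among the nuclear genes LysCTT was the larger family, while among the nuclear reads it was slightly the smaller. The gene share lay just inside the interval of the read share. TAIR10.1 annotates 30 nuclear lysine tRNA genes, 17 of LysCTT and 13 of LysTTT, so LysCTT is 56.7% of them, beside 48.2% (39.7 to 56.8) of the nuclear lysine reads of YAMAT-seq and 83.3% of all lysine tRNA in tRNA-seq, which does not separate compartments. Of the LysCTT genes 15 encode the sequence at_tR124_LysCTT, among them AT1G02760 (chromosome 1, 604402 to 604474, plus strand) and AT5G14035 (chromosome 5, 4530474 to 4530546, plus strand), and 10 of the LysTTT genes encode at_tR127_LysTTT, among them the neighbours AT1G79290 and AT1G79300 (chromosome 1, 29833117 to 29833188 and 29833718 to 29833789, both plus strand). AT4G25435 encodes at_tR126_LysCTT (chromosome 4, 13006234 to 13006306, minus strand), AT5G48465 encodes at_tR130_LysTTT (chromosome 5, 19641603 to 19641674, plus strand) and AT3G07185 encodes at_tR128_LysTTT (chromosome 3, 2285602 to 2285673, plus strand). Reads per gene copy were 4.0 for at_tR124_LysCTT, 5.7 for at_tR127_LysTTT, and 6, 8 and 10 for the sequences with a single gene. Of 7 nuclear lysine isodecoders in the genome 5 were read. AT3G16552 (LysCTT, chromosome 3, 5632852 to 5632924, plus strand) differs from at_tR124_LysCTT by G59A and AT4G28362 (LysTTT, chromosome 4, 14032490 to 14032561, plus strand) from at_tR127_LysTTT by A37C and T43A, counted from 1 at the 5′ end, and neither has an entry in the file.

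Most of these genes stand alone: 28 of 30 overlap no other annotated gene, while AT1G01890 lies in an intron of AT1G01880 on the same strand and AT5G13845 in an intron of AT5G13840 on the other strand. A run of TTTT, the termination signal of RNA polymerase III, was found on the sense strand within 30 bases downstream of 30 of the 30 genes, against 93.6% of all nuclear tRNA genes. CAA, a triplet often found near the start of plant tRNA transcription, was found on the sense strand in the 10 bases upstream of 14 of 17 LysCTT genes (82.4%) and 7 of 13 LysTTT genes (53.8%), against 72.6% of all nuclear tRNA genes. A match to such short motifs describes the letters and not their use.

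Codon use differs between the A. thaliana genomes. Over 27415 nuclear protein genes, AAG was 50.5% of lysine codons, over 85 plastid genes AAA was 77.3%, and over 32 mitochondrial genes AAA was 61.0%. The organelles, whose only annotated lysine tRNA is LysTTT, thus use AAA more than AAG.

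The sequence at_tR124_LysCTT was found letter for letter in all 5 species. It had 60 reads in A. thaliana, 2 in Z. mays, 4 in T. aestivum, 4 in S. italica and 6 in H. vulgare. The mitochondrial at_tR132_LysTTT was likewise identical in T. aestivum with 6 reads and in Z. mays with 8. A read of either sequence cannot be traced to a species by its letters. No grass sequence was nearest to the plastid tRNA, and all remaining ones were 1 to 4 edits from a nuclear A. thaliana lysine tRNA and at least 23 edits from both organelle tRNAs.

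The grass sequences below are shown because they led the LysCTT reads of a species or carry exchanges in stems.
Taestivum_tR492: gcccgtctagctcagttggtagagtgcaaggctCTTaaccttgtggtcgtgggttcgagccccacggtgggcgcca
Taestivum_tR90: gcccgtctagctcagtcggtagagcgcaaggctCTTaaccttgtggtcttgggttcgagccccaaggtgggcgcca
Sitalica_tR142: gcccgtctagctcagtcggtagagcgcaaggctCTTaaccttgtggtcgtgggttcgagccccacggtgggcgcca
Hvulgare_tR146: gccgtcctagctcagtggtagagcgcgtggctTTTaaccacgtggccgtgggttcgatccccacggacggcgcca
Taestivum_tR277: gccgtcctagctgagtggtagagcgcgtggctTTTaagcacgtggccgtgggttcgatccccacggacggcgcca
Taestivum_tR492, a LysCTT with C25T against at_tR124_LysCTT, held 30 of the 44 LysCTT reads of T. aestivum, or 68.2% (52.4 to 81.4), and was the only grass isodecoder with 10 or more reads. The other LysCTT sequences differed from at_tR124_LysCTT by 1 to 3 bases. T17C, in the D arm region, was found in S. italica (Sitalica_tR142, 6 reads), T. aestivum (Taestivum_tR90, 4 reads) and Z. mays (Zmays_tR332, 4 reads).

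Several exchanges came in pairs that keep a stem. G49T and C65A, opposite each other in the T stem, occurred together in Hvulgare_tR220 and Taestivum_tR90 and leave a Watson-Crick pair. All 3 nuclear-like LysTTT sequences of the grasses carried T7C with A65G, which face each other in the acceptor stem, and Taestivum_tR839 also carried T5A with A67T. Other exchanges broke a pair of the acceptor or anticodon stem. Pairs of the D stem were not scored. G43C in at_tR126_LysCTT leaves C opposite C at the base of the anticodon stem, C38G in Taestivum_tR277 leaves G opposite G at its loop end, G4T in at_tR130_LysTTT leaves T opposite C in the acceptor stem, and G66A in Taestivum_tR458 leaves A opposite C there. These 4 nuclear-like sequences had 4 to 10 reads. The plastid at_tR131_LysTTT, with 2209 reads, also has C opposite C in its anticodon stem. Whether such tRNAs are charged was not measured.

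**Figure D3:**
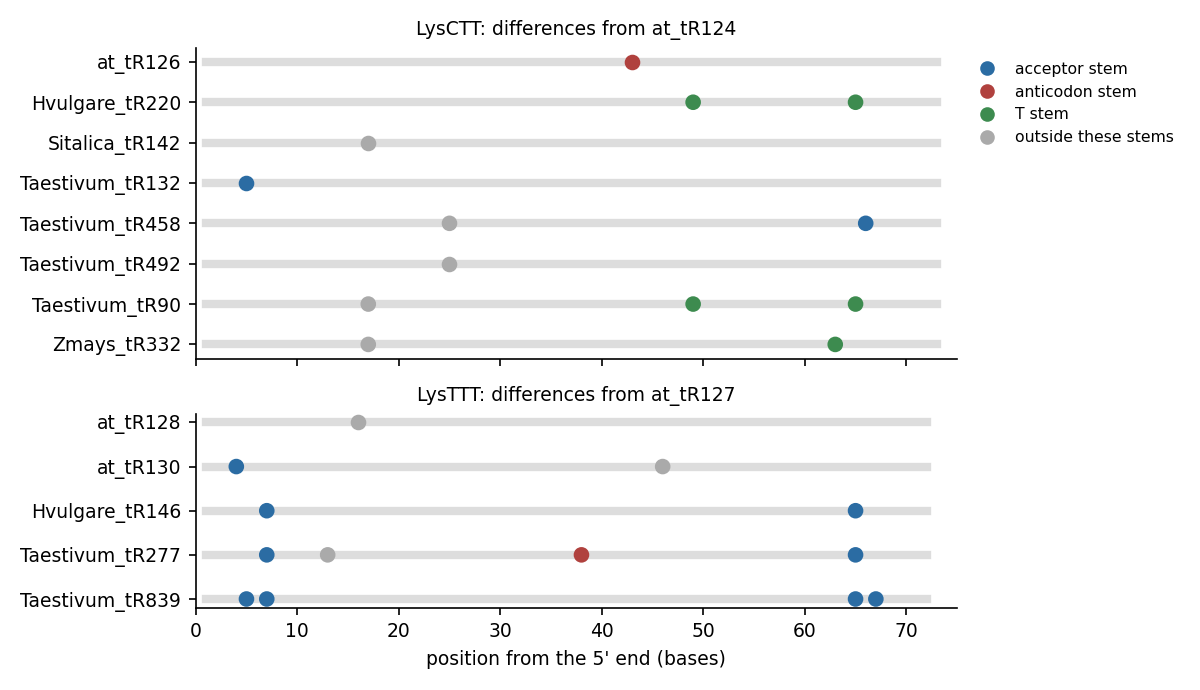
Positions, in bases from the 5′ end, at which nuclear-like lysine isodecoders differ from at_tR124_LysCTT (upper) or at_tR127_LysTTT (lower), 1 row per sequence and coloured by stem. The paired marks at 49 and 65 and at 7 and 65 face each other in the T stem and the acceptor stem.

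Some features were shared by nearly all members. The discriminator base before the CCA end was G in every nuclear-like sequence and A in both organelle ones. The internal promoter element of nuclear tRNA genes known as the B box, searched on the sense strand as GGTTCGA, any 2 bases and CC, was present in 16 of 17 distinct sequences (94.1%), against 56.7% of all 388 distinct YAMAT-seq sequences, and the mitochondrial sequence was the exception. The plastid sequence, not of a nuclear gene, also holds these letters. All others are within 4 edits of at_tR124_LysCTT or at_tR127_LysTTT, so the 16 are not independent cases.

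The ratio of LysCTT to LysTTT in the grass YAMAT-seq libraries had wide intervals. It was 0.75 (0.214 to 2.46) in Z. mays, 2 (0.536 to 9.08) in H. vulgare and 3.14 (1.69 to 6.21) in T. aestivum, and S. italica, with 10 reads against 0, had a lower limit of 2.24 and no upper limit. With nuclear-like sequences alone it was 5.5 (2.56 to 13.5) in T. aestivum, where 6 of 14 LysTTT reads were mitochondrial in sequence, and had a lower limit of 1.18 in Z. mays, where all 8 were. In YAMAT-seq LysCTT was the larger lysine family by count in T. aestivum, H. vulgare and S. italica and the smaller in Z. mays and A. thaliana, but the intervals of H. vulgare and Z. mays include a ratio of 1. All 16 grass lysine entries had even counts, and intervals that take reads as independent may be too narrow.

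**Figure D4:**
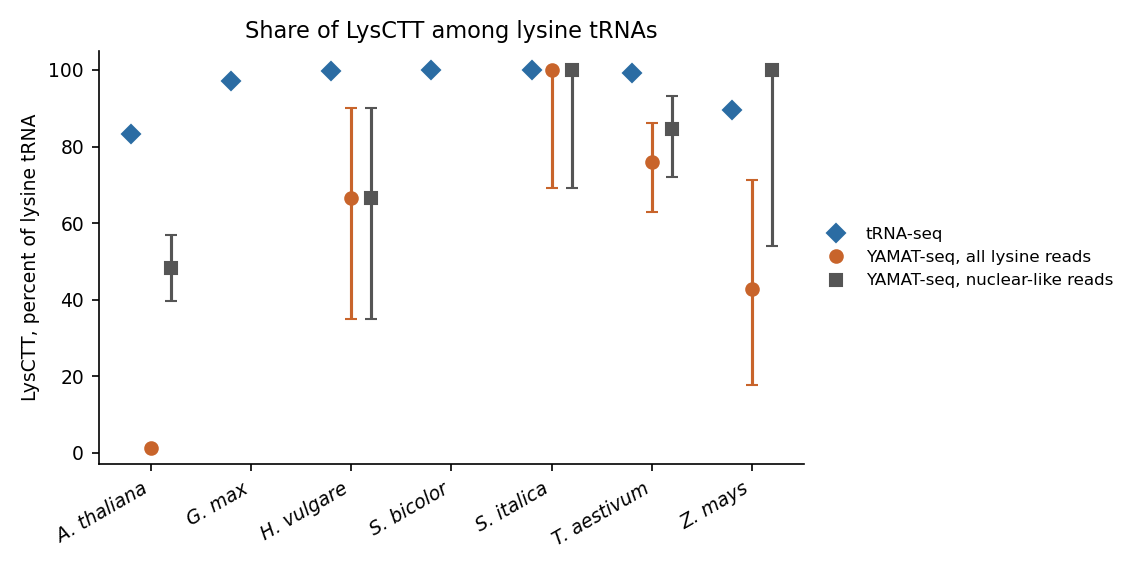
LysCTT as percent of lysine tRNA per species in tRNA-seq (diamonds), in YAMAT-seq over all lysine reads (circles) and in YAMAT-seq over nuclear-like reads (squares), with exact 95% intervals on the YAMAT-seq values. tRNA-seq lies between 83.3% and 100%, and A. thaliana YAMAT-seq moves from 1.37% to 48.2% when organelle sequences are left out.

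The assays were compared in the 5 species that have both. LysCTT was lower in YAMAT-seq in 5 of 5 species, as were 31 of 52 families (59.6%), so its direction is that of most families. Its tRNA-seq share was 2729-fold (2153 to 3514) its YAMAT-seq share in A. thaliana, 7724-fold (5754 to 10631) in T. aestivum, 7194-fold (3305 to 19602) in Z. mays, 17942-fold (9756 to 37415) in S. italica and 46219-fold (23457 to 107055) in H. vulgare, with intervals that cover the YAMAT-seq counts alone. The mean log2 ratio of percent + 0.01 was -7.20 ± 1.58 (SD, n = 5 species), beside a median of -3.95 over the 52 families, and a two-sided exact permutation test that flips signs per species gave p = 0.062, the smallest that 5 species allow, and an adjusted p of 0.102. LysTTT was lower in 4 of 5 species, and 78.8% of families were lower in at least 4. In S. italica it was listed at 0 in tRNA-seq and had no entry in YAMAT-seq, which was taken as 0 reads. It was 7.59-fold (7.38 to 7.81) lower in A. thaliana, 217-fold (129 to 397) in T. aestivum, 232-fold (90.5 to 850) in H. vulgare and 623-fold (316 to 1442) in Z. mays, with a mean log2 ratio of -1.43 ± 1.04 (SD, n = 5), an exact permutation p of 0.125 and an adjusted p of 0.155. These folds count organelle sequences, which held 4832 of the 4905 LysTTT reads of A. thaliana. With nuclear sequences alone its YAMAT-seq share was 0.000543%, while tRNA-seq does not separate compartments. In both comparisons the YAMAT-seq shares of the grasses, and for LysCTT that of A. thaliana too, lie below the pseudocount, which sets the size of these means. In the exact permutation test 0 of the 52 families passed or had an unadjusted p below 0.05.

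**Figure D5:**
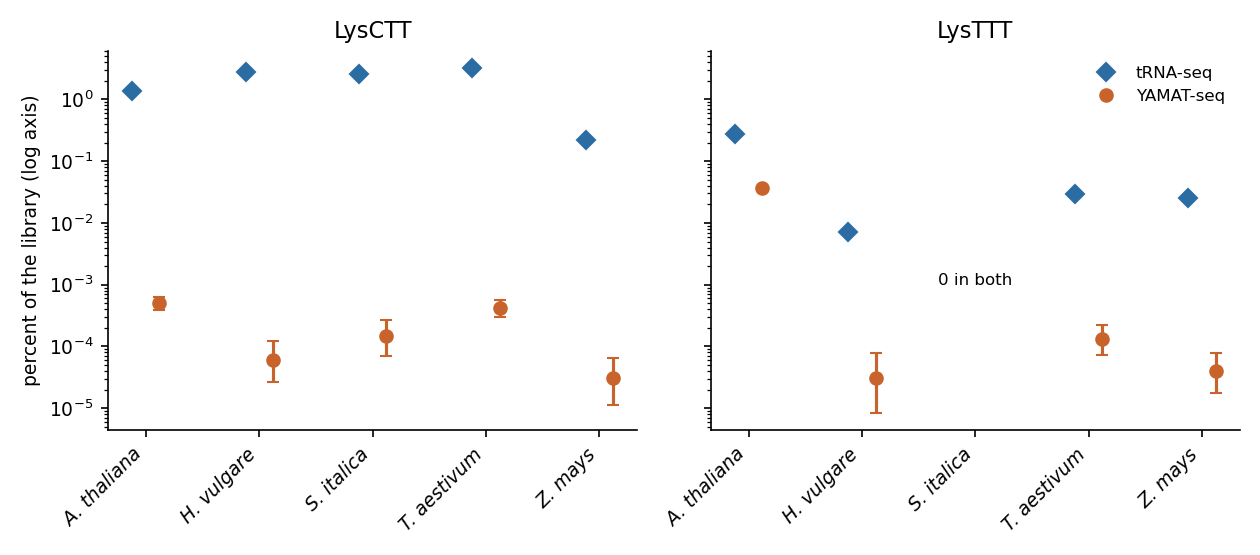
LysCTT (left) and LysTTT (right) as percent of the library on a log axis in tRNA-seq (diamonds) and YAMAT-seq (circles, exact 95% intervals of the counts). LysCTT lies at or above 0.218% in tRNA-seq and at or below 0.000506% in YAMAT-seq, and LysTTT of S. italica, listed at 0 in tRNA-seq and without an entry in YAMAT-seq, is not drawn.

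The ratio of LysCTT to LysTTT fell from tRNA-seq to YAMAT-seq in each species that has it in both. It went from 4.98 to 0.0139 in A. thaliana, from 8.67 to 0.75 in Z. mays, from 112 to 3.14 in T. aestivum and from 399 to 2 in H. vulgare. Each tRNA-seq ratio, taken as listed, lies above the interval of the YAMAT-seq ratio. The tRNA-seq ratios have no interval of their own. LysTTT behind them was 1 step in H. vulgare, 3 in Z. mays and 4 in T. aestivum, so their own error is unknown. The mean log2 difference without a pseudocount was -6.20 ± 2.28 (SD, n = 4 species), with an exact permutation p of 0.125, the smallest that 4 species allow. With the pseudocount and all 5 species it was -5.77 (exact permutation p = 0.062). In the grasses the YAMAT-seq shares of both families lie below that pseudocount. Their YAMAT-seq log2 ratios therefore lay between -0.0014 (Z. mays) and 0.040 (T. aestivum). There the difference is nearly the tRNA-seq ratio alone, which set its sign, so this test cannot tell how the YAMAT-seq ratio of the grasses differs. In A. thaliana the organelle sequences held 97.2% of the lysine reads of YAMAT-seq; with nuclear sequences alone the YAMAT-seq ratio was 0.932 (0.659 to 1.31), below 4.98. In Z. mays the nuclear-like reads were 6 of LysCTT and 0 of LysTTT, with a lower limit of 1.18 and no upper limit, so the tRNA-seq ratio of 8.67 was not above that interval.

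Glutamine and glutamate, whose families also differ by C or T in the wobble position, shared the tRNA-seq split of lysine in some species only. The C form was 83.3% to 100% of lysine tRNA over the 7 species, but 5.09% to 87.1% of glutamine tRNA (GlnCTG beside GlnTTG) and 17.9% to 98.9% of glutamate tRNA (GluCTC beside GluTTC). Glutamine lay in the lysine range in A. thaliana and S. bicolor, and glutamate in H. vulgare, S. bicolor and T. aestivum. From tRNA-seq to YAMAT-seq the C form of glutamine fell, from 87.1% to 0.0122% in A. thaliana, except in Z. mays, where it rose to 16.8%. That of glutamate fell in H. vulgare and T. aestivum and rose in A. thaliana, S. italica and Z. mays. Among the other basic residues, arginine tRNAs summed over 5 families to 2.81% to 8.14% of tRNA-seq, above lysine in all 7 species, and HisGTG to 0.116% to 17.8%. In YAMAT-seq arginine tRNAs had 16441 to 81592 reads per library, above lysine in all 5 species, with 46496 against 4973 in A. thaliana. HisGTG was as scarce as lysine in the grasses, with 0 reads in Z. mays, 6 in T. aestivum, 2 in H. vulgare and 14 in S. italica, where lysine tRNAs had 14, 58, 12 and 10, but had 78448 reads in A. thaliana. Few reads in the grasses were thus not particular to lysine.

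Across the 7 tRNA-seq species, the families most like LysCTT in log2(percent + 0.01) were ValTAC (Pearson's r = 0.76), ThrAGT (0.75) and ArgTCT (0.74), out of 36 families that averaged 0.1% or more. Those most like LysTTT were LeuTAG (0.85), ProTGG (0.83) and GlnCTG (0.73), out of 37. These values describe 7 libraries that share a fixed total and carry no p-value.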

How the data were processed

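The tRNA-seq values were deposited as percent of total tRNA abundance per anticodon, per the file headers. Each YAMAT-seq file was deposited by the authors with a read count for every tRNA sequence it lists, the lowest being 1. The submitters' processing notes name cutadapt and TAIR10. The sources used here name no aligner, reference tRNAs or treatment of multiply matching reads. YAMAT-seq used 12 PCR cycles without molecular identifiers, per the labels' protocols, so reads are not independent molecules.

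Anticodons came from the names in A. thaliana and in the grasses from the middle of the 7-base loop closed by the best stem of 5 pairs. For A. thaliana it matched the anticodon in the name in 141 of 143 sequences, all 7 of lysine included. Sequences without CCA were matched exactly to TAIR10.1 (all coordinates are of that build) and otherwise compared by edit distance (edlib 1.3.9.post1). Shares used the file total. Tests were exact permutations of log2(percent + 0.01) over species, for all 52 families with Benjamini-Hochberg adjustment (Python 3.11.15), and were checked on simulated data. Stem pairs were placed by position from both ends, for the acceptor, anticodon and T stems only.

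Members and lists were chosen with earlier results of these data known. Named families were the members, the 3 most similar to each with a mean of at least 0.1%, and the arginine, histidine, glutamine and glutamate families. Alternatives were other pseudocounts, each species left out, a filter on low families, shares without GlyGCC, rescaled columns, at least 10 reads and the loop anticodon in A. thaliana.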

Additional observations from a re-analysis of the deposited data

Results flagged for a closer look

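The LysTTT share of A. thaliana stood apart from the other species in both assays. In tRNA-seq it was 0.277%, with the next species, G. max, at 0.0390%, so that the gap took 0.859 of the range of the 7 species. In YAMAT-seq it was 0.0365%, with the next species, T. aestivum, at 0.000133%. Organelle sequences held 97.2% of the A. thaliana lysine reads there. With nuclear-like sequences alone LysTTT was 0.000543% in A. thaliana and 7.61e-05% in T. aestivum. The tRNA-seq columns of A. thaliana are labelled leaf and root, and those of the other species seedling. The gap over the range was set against Dixon's limits in 10 sets of values, some of them overlapping. Of these 2 held a value past the limit, both LysTTT of A. thaliana. Such limits pick about 1 in 20 sets of normal values. These percentages are bounded at 0 and the sets share species, so that rate need not hold here.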

How the results depend on the processing

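All 6 tested results kept their direction under every alternative run. None had a p of 0.05 or less (adjusted for the families) under any of them, which says nothing about stability in designs this small. Leaving out each species in turn, the log2 difference between assays lay between -7.87 and -6.93 for LysCTT, between -1.79 and -1.13 for LysTTT and between -6.54 and -5.21 for their ratio. The range for the ratio mostly follows tRNA-seq, since both YAMAT-seq shares of the grasses lie below the pseudocount. The log2 difference between grasses and eudicots lay between 0.18 and 1.21 for LysCTT, the highest without Z. mays, between -3.93 (without G. max) and -1.38 (without A. thaliana) for LysTTT and between 1.88 (without A. thaliana) and 4.34 (without G. max) for their ratio. Across pseudocounts the difference between assays was -10.25 with 0.001 and -1.48 with 1 for LysCTT, and -3.05 and -0.08 for LysTTT. For their ratio it was -7.21 and -1.40. The difference between grasses and eudicots stayed between 0.45 and 0.49 for LysCTT. For LysTTT it was -4.20 with 0.001 and -0.19 with 1, and for the ratio 4.64 and 0.65. LysTTT has a mean under 0.1%, so the filter on low families leaves no value for it. With sequences of at least 10 reads alone, no lysine read was left in H. vulgare, S. italica and Z. mays, and T. aestivum kept LysCTT at 0.000285%. Without GlyGCC in the total, LysCTT was 0.00268% in T. aestivum, 0.00139% in S. italica, 0.00113% in A. thaliana, 0.000621% in Z. mays and 0.000256% in H. vulgare, so that T. aestivum and S. italica stood above A. thaliana, which was highest with it. Nuclear-like sequences alone, an alternative chosen after seeing the data, like the ratio without a pseudocount, lowered LysTTT of A. thaliana to 0.000543%. The anticodon read from the loop changed none of the lysine shares.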

Other observations

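Read counts of lysine isodecoders were even more often than odd. All 16 lysine entries of the 4 grasses, each under 100 reads, had an even count, as had 4 of the 5 A. thaliana lysine entries under 100 reads. Over all entries under 100 reads, 215 of 272 (79.0%) were even in the grasses and 64 of 82 (78.0%) in A. thaliana. The cause was not tested. The intervals above take reads as independent, and they are too narrow where reads are not.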
